A study of Mus musculus and Homo sapiens with 24 samples.

Results

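The subject is 10 genes of the endoplasmic reticulum (ER) folding and stress machinery in HepG2, a human hepatoma cell line: HSPA5, HYOU1, DNAJB9, SDF2L1, PDIA4, CRELD2, ERP27, HERPUD1, SEL1L and XBP1. They were picked by symbol from 28278 genes in the HepG2 count table, and all 10 have a row there. The 12 HepG2 libraries of bulk RNA form 4 groups of 3, named A, B and C: control, 50 μM CoCl2, 25 nM β-estradiol (called estrogen) and both agents together (labelled CoCl2-Estrogen, written CoCl2+estrogen here), each for 4 h. CoCl2 is a chemical that stabilizes hypoxia-inducible factor, so the design asks what estrogen, a hypoxia mimic and their combination each did to the RNA of these liver-derived cells. All groups were 1 cell line kept in serum-free medium overnight before treatment. The labels do not say whether A, B and C came from separate cultures, so p-values measure the spread between these libraries, which may be technical.

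Proteins that are secreted or sit in membranes fold inside the ER, where Hsp70-type chaperones bind unfolded chains, disulfide isomerases form and rearrange cysteine bonds, and chains that fail are passed back to the cytosol for degradation. When unfolded protein accumulates, the sensors IRE1, PERK and ATF6 start the unfolded protein response, in which XBP1 and ATF6 raise chaperone and degradation genes while ATF4 raises stress genes such as DDIT3. Hepatocytes carry a heavy secretory load, with albumin, clotting factors and lipoproteins among their products.

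Levels are given as CPM, the reads of a gene scaled to a common library size by edgeR with TMM factors. A gene is called higher or lower where the quasi-likelihood test of edgeR gave a Benjamini-Hochberg adjusted p of 0.05 or less. A standard error (SE) is printed with part of the fold changes. It is the absolute log2 fold change divided by the square root of the F statistic of that test. Library totals ran from 13592637 to 21701480 reads. The first principal component, with 69.4% of the variance, separated libraries with estrogen from those without, and CoCl2 replicate B stood apart from its group on the second. On the first, libraries without estrogen lay at −67.7 to −62.0, CoCl2+estrogen libraries at 53.9 to 60.5 and estrogen libraries at 72.9 to 73.5. All 10 genes of a HIF1 target list were called higher with CoCl2, with a median log2 fold change of 1.47. All 9 hepatocyte marker genes were detected. Of 8 markers of other cell types, PTPRC and COL1A2 had no read in any library, and the summed level of the list was 430 to 548 CPM over the 12 libraries.

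Estrogen alone lowered 6 of the 10 genes and raised 3. ERP27, CRELD2, PDIA4 and SDF2L1 fell to well under their control levels, HSPA5 and XBP1 fell less, and DNAJB9 rose 4.37-fold. SEL1L and HERPUD1 were slightly higher, and HYOU1 was not called. The 9 calls are to be read against 68.9% of all 16281 genes tested, of which 34.7% were higher and 34.2% lower. By size, 4 of the 10 were called lower by more than 2-fold, where 14.2% of all genes were, and the median absolute log2 fold change was 1.40 over the 10 and 0.66 over all genes. The median signed log2 fold change was −0.84 over the 10 and −0.00 over all genes. The ranges of estrogen and control libraries did not overlap for 9 of the 10, against 72.1% of all genes. The 10 genes were chosen with earlier results of these data known. These shares therefore describe the genes and cannot test whether they differ from the rest.

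**Figure D1:**
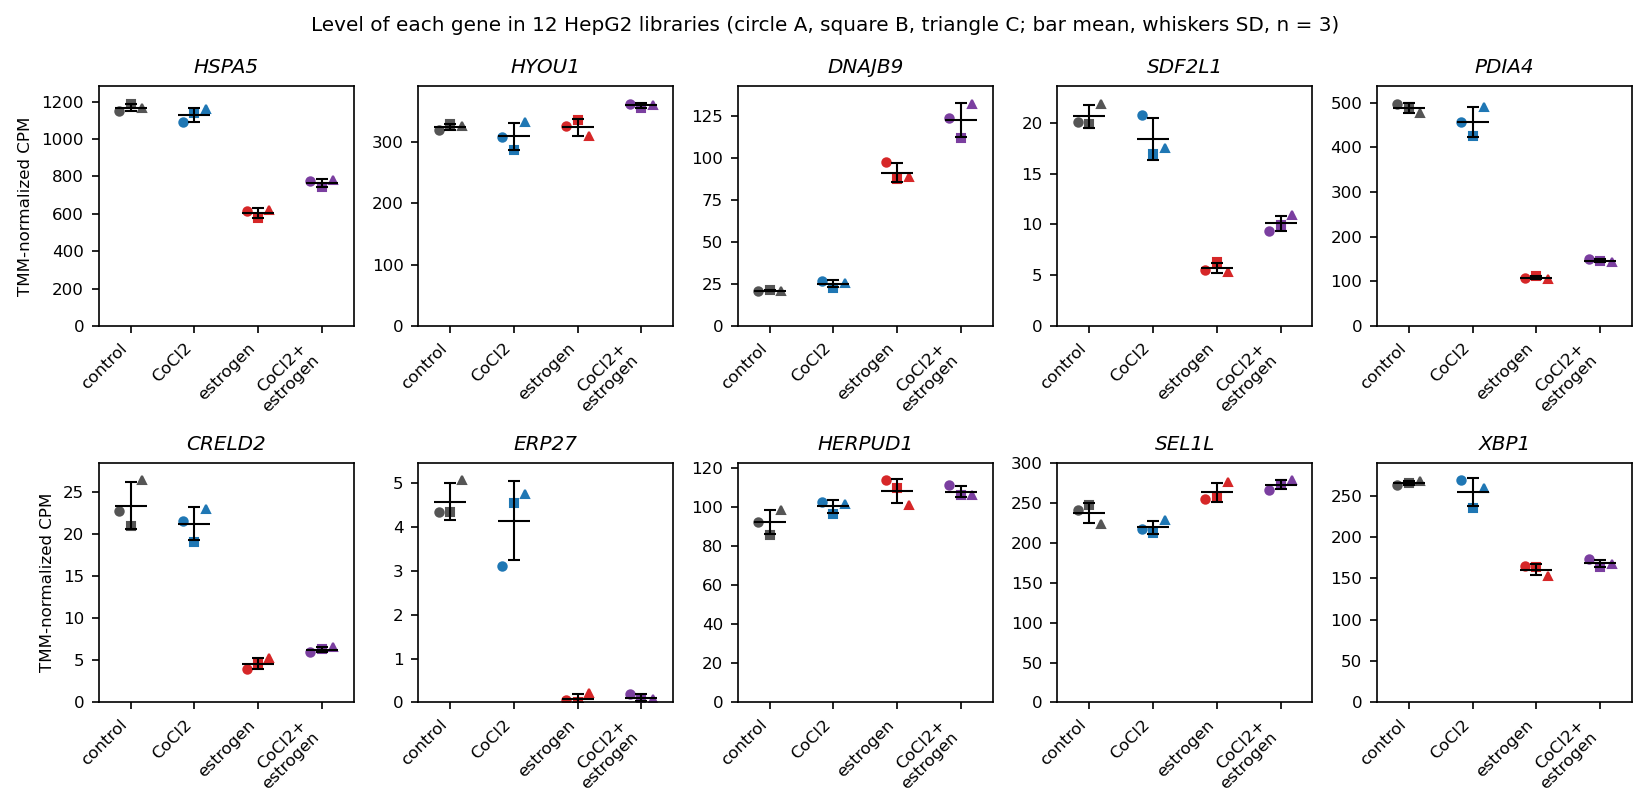
Level of each of the 10 genes in TMM-normalized CPM (vertical axes, linear, from 0) in the 4 HepG2 groups, with 1 point per library and the mean with its SD (n = 3) in black. PDIA4, CRELD2, SDF2L1, ERP27, HSPA5 and XBP1 are lower in the 6 libraries with estrogen than in the 6 without, and DNAJB9 is higher in them.

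HSPA5 encodes BiP, the main Hsp70 chaperone of the ER and the protein that holds the stress sensors inactive. In replicates A, B and C it measured 1148, 1188 and 1166 CPM in control, 1089, 1137 and 1162 with CoCl2, 617, 575 and 620 with estrogen, and 774, 743 and 783 with CoCl2+estrogen. Control and CoCl2 libraries overlapped, the estrogen libraries were lowest, and the CoCl2+estrogen libraries lay between with no overlap on either side. Estrogen left HSPA5 at 51.8% of control, a log2 change of −0.95 (SE 0.06, adjusted p = 8.33e-10, edgeR).

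HYOU1, the large Hsp70-type chaperone that exchanges nucleotide on BiP, did not follow its partner. It measured 320, 329 and 326 CPM in control, 309, 288 and 332 with CoCl2, 326, 337 and 309 with estrogen, and 363, 356 and 361 with CoCl2+estrogen. The first 3 groups overlapped, and the combined treatment gave the 3 highest values. Under estrogen the log2 fold change was −0.00 with a 95% interval of −0.13 to 0.12 (adjusted p = 0.944, edgeR). With library totals in place of TMM, a scaling that moved the median of all genes by −0.13, it became −0.13 (adjusted p = 0.0441, edgeR).

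DNAJB9, also called ERdj4, is a J-domain cochaperone that brings BiP to misfolded clients and to the sensor IRE1. It was at 20.7, 21.3 and 20.7 CPM in control, at 26.9, 22.7 and 25.7 with CoCl2, at 97.7, 87.8 and 88.5 with estrogen, and at 124, 112 and 132 with CoCl2+estrogen. No 2 groups overlapped, and the order ran from control through CoCl2 and estrogen to the combination. The estrogen log2 fold change was 2.13 (SE 0.07, adjusted p = 1.86e-12, edgeR), which placed DNAJB9 954 from the top among 16281 genes ordered by rise.

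SDF2L1 is a small ER protein that works in a complex with BiP and its J-domain partners. It had 20.1, 19.9 and 21.9 CPM in control, 20.7, 16.9 and 17.5 with CoCl2, 5.46, 6.27 and 5.32 with estrogen, and 9.38, 9.94 and 10.9 with CoCl2+estrogen. The groups without estrogen overlapped, while both estrogen groups lay below them and apart from each other. Behind the estrogen values stood 77 to 98 reads per library. SDF2L1 fell to 27.6% of control, a log2 change of −1.86 (SE 0.12, adjusted p = 1.69e-09, edgeR).

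PDIA4, or ERp72, is a protein disulfide isomerase. Its levels were 498, 490 and 477 CPM in control, 457, 425 and 492 with CoCl2, 108, 112 and 106 with estrogen, and 150, 146 and 143 with CoCl2+estrogen. Estrogen took it to 22.2% of control (log2 fold change −2.17, SE 0.06, adjusted p = 1.82e-13, edgeR). The spread within each estrogen group was small beside the gap between them.

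CRELD2 is an ER protein with disulfide isomerase activity that is known as a stress-inducible gene. It measured 22.7, 20.9 and 26.4 CPM in control, 21.5, 19.1 and 22.9 with CoCl2, 3.95, 4.63 and 5.25 with estrogen, and 5.92, 6.28 and 6.60 with CoCl2+estrogen. Counts in the estrogen libraries were 65 to 76 reads. The log2 fold change under estrogen was −2.34 (SE 0.14, adjusted p = 7.56e-10, edgeR), to 19.7% of control.

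ERP27 encodes a disulfide isomerase family member without the catalytic cysteine pair, which binds unfolded chains and hands them to PDIA3. Its reads numbered 83, 94 and 88 in control, 58, 62 and 104 with CoCl2, 1, 0 and 3 with estrogen, and 3, 1 and 1 with CoCl2+estrogen. At this depth it was all but lost from the libraries with estrogen. A library with 0 reads allows up to 3. Summed over each group, 265 reads in control stood against 4 with estrogen, a level 52.9 times lower per normalized read (95% interval 20.4 to 196, counting error only, adjusted p = 1.70e-08 in edgeR). Of those 4 reads, 3 came from replicate C, and without it the fitted log2 value went from −5.62 to −6.91. Against control the combination was 41.9 times lower (17.7 to 130), and without its replicate A, which had 3 of its 5 reads, the fitted log2 value went from −5.33 to −6.03. Between the estrogen groups themselves, with 4 and 5 reads, ERP27 did not pass the filter on low counts and was not tested.

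HERPUD1 and SEL1L belong to ER-associated degradation. HERPUD1 is a membrane protein that assembles the degradation complex, and SEL1L is the adaptor that holds the ubiquitin ligase HRD1. HERPUD1 measured 92.6, 85.9 and 98.6 CPM in control, 103, 96.6 and 102 with CoCl2, 114, 110 and 101 with estrogen, and 111, 106 and 106 with CoCl2+estrogen. Its estrogen log2 fold change was 0.23 (SE 0.07, adjusted p = 0.0104, edgeR). The call was lost without estrogen replicate A (0.17, adjusted p = 0.0872), with upper-quartile scaling (0.16, adjusted p = 0.0585) and with library totals (0.10, adjusted p = 0.231), all in edgeR.

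SEL1L was at 242, 248 and 224 CPM in control, 217, 213 and 229 with CoCl2, 256, 257 and 277 with estrogen, and 267, 274 and 279 with CoCl2+estrogen. The 6 libraries with estrogen were the 6 highest. The estrogen log2 fold change of 0.15 (SE 0.06, adjusted p = 0.0423, edgeR) was close to the threshold. Leaving out control replicate A gave 0.16 (adjusted p = 0.0833), control replicate C 0.11 (0.116), estrogen replicate A 0.15 (0.0783), estrogen replicate B 0.15 (0.0728) and estrogen replicate C 0.10 (0.194), none of them called by edgeR. The call was also lost with upper-quartile scaling (0.08, adjusted p = 0.259), library totals (0.02, adjusted p = 0.779) and no filter on low counts (0.14, adjusted p = 0.0555).

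XBP1 encodes the transcription factor that becomes active when IRE1 splices its messenger, a step that counts per gene do not show. It measured 263, 266 and 268 CPM in control, 269, 236 and 259 with CoCl2, 165, 164 and 153 with estrogen, and 173, 164 and 167 with CoCl2+estrogen. Libraries fell into a high pair of groups without estrogen and a low pair with it, and the members of each pair overlapped. XBP1 fell by 0.73 on the log2 scale with estrogen (SE 0.06, adjusted p = 2.47e-08, edgeR). These are bulk libraries, in which fewer cells making a transcript and less of it per cell cannot be told apart.

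**Figure D2:**
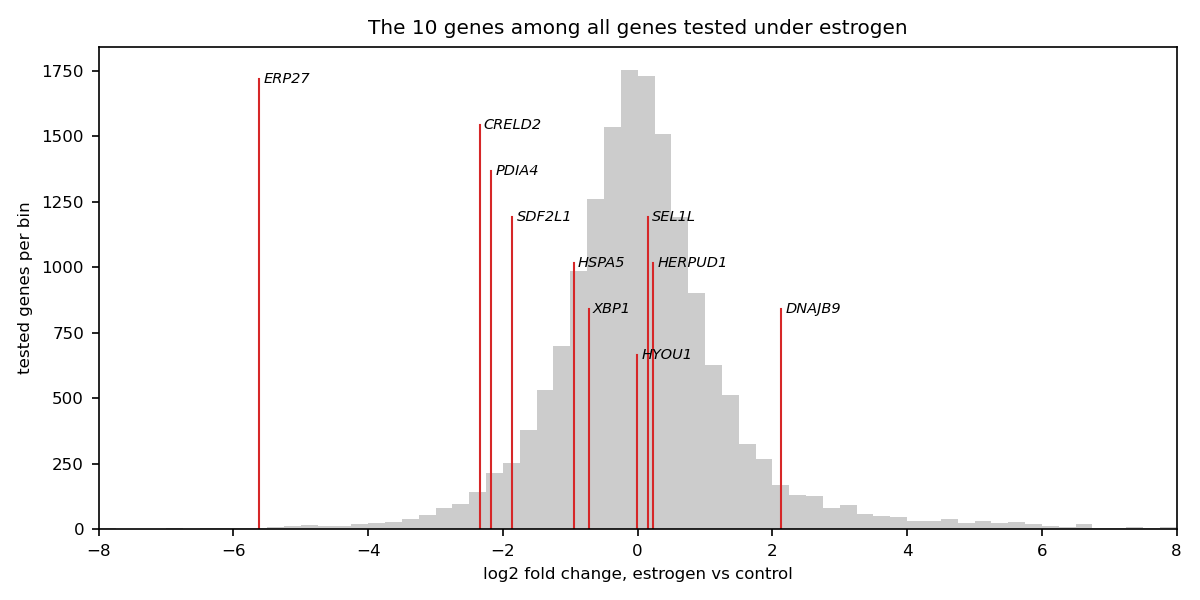
Histogram of log2 fold changes (estrogen against control) of the 16281 genes tested, in bins of equal width, with a red line at the value of each of the 10 genes; line heights only separate the names. ERP27, CRELD2, PDIA4 and SDF2L1 lie in the lower tail, DNAJB9 in the upper one, and HYOU1, SEL1L and HERPUD1 near 0.

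The hepatocyte markers moved with these results. All 9 were called lower with estrogen (median log2 fold change −1.12). Their summed level was 27874 to 30481 CPM in control, 30535 to 31270 with CoCl2, 14993 to 16506 with estrogen and 16736 to 17457 with CoCl2+estrogen. The part of this shift in the results for the 10 genes was not tested.

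The balance among the genes changed within each library, which scaling between libraries does not touch. For every 100 HSPA5 reads there were 1.79 ± 0.01 (SD, n = 3) DNAJB9 reads in control, 2.23 ± 0.24 with CoCl2, 15.1 ± 0.80 with estrogen and 16.0 ± 0.92 with CoCl2+estrogen. HYOU1 reads per 100 HSPA5 reads went from 27.9 ± 0.13 in control to 53.8 ± 4.41 with estrogen and 47.0 ± 0.93 with the combination. PDIA4 reads per 100 HYOU1 reads were 146 to 155 in control and 148 in each CoCl2 library, but 33.0 to 34.1 with estrogen and 39.6 to 41.4 with CoCl2+estrogen. XBP1 per 100 HSPA5 reads moved little, from 22.8 ± 0.34 in control to 26.6 ± 1.95 with estrogen and 22.0 ± 0.54 with the combination. These ratios compare libraries and say nothing of which gene is more abundant per length.

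With CoCl2 alone, none of the 10 genes was called by edgeR, against 1.44% of 15872 genes tested, and DESeq2 also called 0. At an unadjusted p under 0.05 there was 1, against 11.3% of all genes: DNAJB9, with a log2 fold change of 0.27 (SE 0.08, adjusted p = 0.210, edgeR). It was also the only one of the 10 whose groups did not overlap, where 16% of all genes had no overlap. The other log2 fold changes ran from −0.15 for SDF2L1 to 0.13 for HERPUD1. The 95% interval was −0.17 to 0.09 for HSPA5, −0.23 to 0.06 for PDIA4 and −0.19 to 0.09 for XBP1, which leaves out changes of the size seen with estrogen, and −0.57 to 0.30 for ERP27, whose counts were low. Without CoCl2 replicate B the count of called genes was again 0.

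CoCl2+estrogen against control gave calls in the same direction for the 9 genes called with estrogen alone, 6 lower and 3 higher, against 65.4% of 16201 genes called, 33.2% lower and 32.3% higher. The comparisons share the control libraries. On the log2 scale the combination gave −0.64 for HSPA5 where estrogen alone gave −0.95, −1.06 for SDF2L1 where it gave −1.86, −1.77 for PDIA4 where it gave −2.17, and −1.93 for CRELD2 where it gave −2.34. DNAJB9 went the other way round, with 2.52 in the combination. XBP1 was at −0.69 and HYOU1 at 0.11 (adjusted p = 0.0694, edgeR). HYOU1 was called in 3 of 14 alternatives. In edgeR these were median-ratio scaling (0.14, adjusted p = 0.0329) and filterByExpr (0.14, adjusted p = 0.0250), and the third was DESeq2 (0.14, adjusted p = 0.0178). No gene of the 10 had overlapping groups, against 69% of all genes without overlap.

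SEL1L at 0.17 (adjusted p = 0.0186, edgeR) and HERPUD1 at 0.19 (adjusted p = 0.0219, edgeR) were the weakest calls of the combination against control. In edgeR, SEL1L was not called without control replicate C (0.14, adjusted p = 0.0558) or CoCl2+estrogen replicate C (0.16, adjusted p = 0.0669). HERPUD1 was not called without control replicate A (0.20, adjusted p = 0.0509), control replicate B (0.16, adjusted p = 0.0632) or CoCl2+estrogen replicate A (0.17, adjusted p = 0.0808). With library totals neither was called (SEL1L 0.07, adjusted p = 0.277, and HERPUD1 0.10, adjusted p = 0.220).

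**Figure D3:**
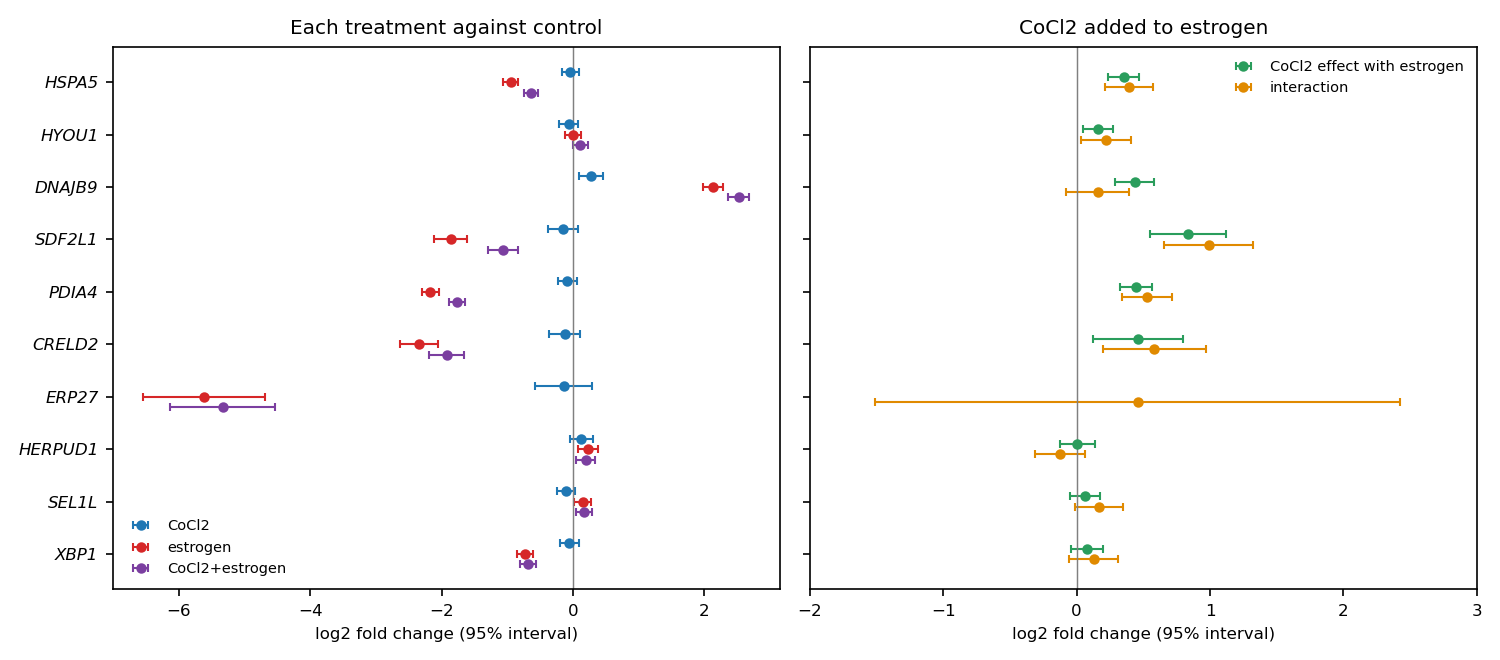
Log2 fold changes with 95% intervals from edgeR. Left, each treatment against control; right, CoCl2+estrogen against estrogen (green, ERP27 not tested) and the interaction (orange). With CoCl2 alone no gene was called, and only the interval of DNAJB9 (0.09 to 0.46) leaves out 0. On the right the intervals of HSPA5, SDF2L1, PDIA4, HYOU1 and CRELD2 lie above 0 on both measures. Of these, HSPA5, SDF2L1 and PDIA4 were called on both after adjustment.

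CoCl2 added to estrogen raised SDF2L1, PDIA4, DNAJB9 and HSPA5. Against estrogen alone, 5 of the 9 genes tested were called, all higher in CoCl2+estrogen, where 8.14% of 15925 genes were called higher and 8.85% lower. SDF2L1 rose by 0.84 (SE 0.14, adjusted p = 0.000317), PDIA4 by 0.44 (0.06, adjusted p = 3.47e-05), DNAJB9 by 0.43 (0.07, adjusted p = 0.000327) and HSPA5 by 0.35 (0.05, adjusted p = 0.000189) on the log2 scale, all in edgeR. The median log2 fold change over the 9 genes was 0.35, and over all genes it was 0.01. Rises were not particular to the 9 genes. Of 9 hepatocyte markers, 4 were called higher and 1 lower, and of 18 translocon and signal peptidase genes, 10 higher and 0 lower. Over all genes, the median absolute log2 change against control was 0.66 with estrogen and 0.59 with the combination. XBP1 (0.08, 95% interval −0.04 to 0.20), SEL1L (0.06, −0.05 to 0.18) and HERPUD1 (0.00, −0.13 to 0.14) were not called. Groups did not overlap for 6 of the 9 genes, against 32.7% of all genes.

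HYOU1 was the fifth call, at 0.16 (SE 0.05, adjusted p = 0.0442, edgeR), and it was lost in 11 of 14 alternatives, among them leaving out any 1 of the 6 libraries. In edgeR, leaving out estrogen replicate A, B or C gave adjusted p = 0.125, 0.0647 and 0.138, and leaving out CoCl2+estrogen replicate A, B or C gave 0.125, 0.0743 and 0.0936. CRELD2, at 0.46 (SE 0.16, adjusted p = 0.0579, edgeR), had groups that did not overlap and was called without estrogen replicate C (0.56, adjusted p = 0.0372).

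An interaction term fitted to the 12 libraries asked whether the estrogen effect itself differed with and without CoCl2. It was positive and called for 3 of the 10 genes, against 2.1% of 16681 genes called positive and 3.7% negative. Over all genes, 36.2% of interaction calls were positive, and 51.6% with library totals. HSPA5 had an interaction of 0.39 (95% interval 0.21 to 0.57, adjusted p = 0.00922), PDIA4 of 0.53 (0.34 to 0.72, adjusted p = 0.00137) and SDF2L1 of 0.99 (0.65 to 1.33, adjusted p = 0.000931), all log2 values from edgeR. These 3 calls held in each of 19 alternatives, CoCl2 replicate B left out among them.

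The fall of each with estrogen was smaller when CoCl2 was present: between CoCl2+estrogen and CoCl2 alone it was −0.58 for HSPA5, −1.67 for PDIA4 and −0.89 for SDF2L1. In that comparison 9 of the 10 genes were called, against 60.9% of 16200 genes, and the ranges did not overlap for any of the 10, against 65.9% of all genes without overlap. HERPUD1 was the gene not called, at 0.08 (95% interval −0.08 to 0.24, adjusted p = 0.353, edgeR). Its interaction of −0.13 (−0.31 to 0.06, adjusted p = 0.506, edgeR) was not called either. DNAJB9 was 2.26 higher and its interaction was 0.16 (95% interval −0.08 to 0.39, adjusted p = 0.519, edgeR). CRELD2 had an interaction of 0.58 (0.20 to 0.97, adjusted p = 0.0726, edgeR), XBP1 of 0.13 (−0.06 to 0.31) and HYOU1 of 0.22 (0.04 to 0.41, adjusted p = 0.176, edgeR). HYOU1 was called higher in CoCl2+estrogen than with CoCl2 alone (0.19, adjusted p = 0.0225, edgeR), but not without CoCl2 replicate B (0.15, adjusted p = 0.0616), CoCl2+estrogen replicate A (0.19, adjusted p = 0.0655) or C (0.19, adjusted p = 0.0574), nor with library totals (0.14, adjusted p = 0.0874).

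Other genes of the same machinery were read from lists of known members, also chosen with earlier results of these data known. Their shares beside those of all genes are descriptions. Of 27 other ER chaperones and folding enzymes, 17 were lower, 4 higher and 6 not called with estrogen (all genes: 34.2% lower and 34.7% higher). CALR, the lectin chaperone calreticulin, fell by 1.44, PDIA6, a disulfide isomerase, by 1.10, and PPIB, a proline isomerase, by 1.31 on the log2 scale. Genes of this list called higher were DNAJC3, DNAJC1, SDF2 and ERO1B, named after their values were seen. With CoCl2 added to estrogen, 15 of the 27 were higher and 0 lower, against 8.14% and 8.85% of all genes. The interaction was called positive for 4, against 2.1% of all genes: PDIA5, TXNDC5, DNAJC3 and MANF, also named after their values were seen. ERO1A, the oxidase that recharges disulfide isomerases, was the only one called with CoCl2 alone (0.37, adjusted p = 0.0158, edgeR). That call was lost in 5 of 14 alternatives: library totals (adjusted p = 0.0572) and without control replicate A (0.0785), B (0.0763) or C (0.0746) or CoCl2 replicate C (0.130).

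Among genes of ER-associated degradation more were called higher than lower. Of 20 tested besides HERPUD1 and SEL1L, 12 were higher, 4 lower and 4 not called with estrogen, where 34.7% of all genes were higher and 34.2% lower. Their median log2 fold change was 0.32, and DERL3 had no read. AUP1, which anchors a ubiquitin-conjugating enzyme, rose by 0.87, HERPUD2, the paralog of HERPUD1, rose by 0.95, and EDEM2, which trims mannose from misfolded glycoproteins, fell by 1.23 on the log2 scale. When CoCl2 was added to estrogen, 1 of the 20 was called, and it was higher, where 8.14% of all genes were called higher and 8.85% lower.

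The stress sensor gene ERN1, which encodes IRE1α, the enzyme that splices XBP1 messenger, changed far more than any of the 10 genes except ERP27. It measured 16.9, 18.7 and 18.4 CPM in control, 19.0, 19.9 and 19.7 with CoCl2, 430, 433 and 416 with estrogen, and 201, 211 and 213 with CoCl2+estrogen. Its log2 fold change was 4.56 with estrogen (SE 0.07, adjusted p = 9.56e-16, edgeR), while its substrate XBP1 fell by 0.73. Against estrogen alone, CoCl2+estrogen had ERN1 lower by a log2 change of −1.02 and DNAJB9 higher by 0.43. Of 9 sensor and protease genes tested, 5 were higher and 3 lower with estrogen, where 34.7% of all genes were higher and 34.2% lower. The count of lower genes was near that share. MBTPS1, a protease that cuts ATF6, was at 0.60 and CREB3L2, an ER-bound transcription factor, at −1.07.

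Estrogen raised all 11 of the PERK-ATF4 genes tested, where 34.7% of all genes were called higher, and their median log2 fold change was 1.86. PERK-ATF4 is the name of the list, and which sensor or pathway raised its genes was not tested. PPP1R15A, which reverses the translation block set by PERK, rose by 4.71, ATF3, a stress transcription factor, by 4.59, and DDIT3, or CHOP, by 3.79 on the log2 scale. CoCl2 added to estrogen called 7 of the 11 lower and 0 higher, with DDIT3 at −1.72 and PPP1R15A at −1.10, where 8.85% of all genes were called lower. The interaction was called negative for 9 of the 11, against 3.7% of all genes.

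With CoCl2 alone, 4 of the 11 PERK-ATF4 genes tested were called higher, where 1.44% of all genes were called in either direction. By the edgeR test they were DDIT4, an inhibitor of mTOR signaling (1.85, adjusted p = 5.26e-06), VLDLR, a lipoprotein receptor (1.03, adjusted p = 0.00186), PPP1R15A (0.44, adjusted p = 0.0382) and ATF4 (0.30, adjusted p = 0.0471). The last pair were weak calls in edgeR. Without control replicate A, B or C, PPP1R15A had adjusted p = 0.0935, 0.159 and 0.148 and ATF4 0.323, 0.138 and 0.117. Without CoCl2 replicate B or C, PPP1R15A had adjusted p = 0.101 and 0.246 and ATF4 0.110 and 0.250. In edgeR with library totals, PPP1R15A had adjusted p = 0.0828 and ATF4 0.152. ATF4 was also not called with upper-quartile scaling (adjusted p = 0.0619) or filterByExpr (0.0686), both in edgeR. CoCl2 alone also raised all 10 genes of the HIF1 target list. Which pathway raised DDIT4 and VLDLR was not tested.

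**Figure D4:**
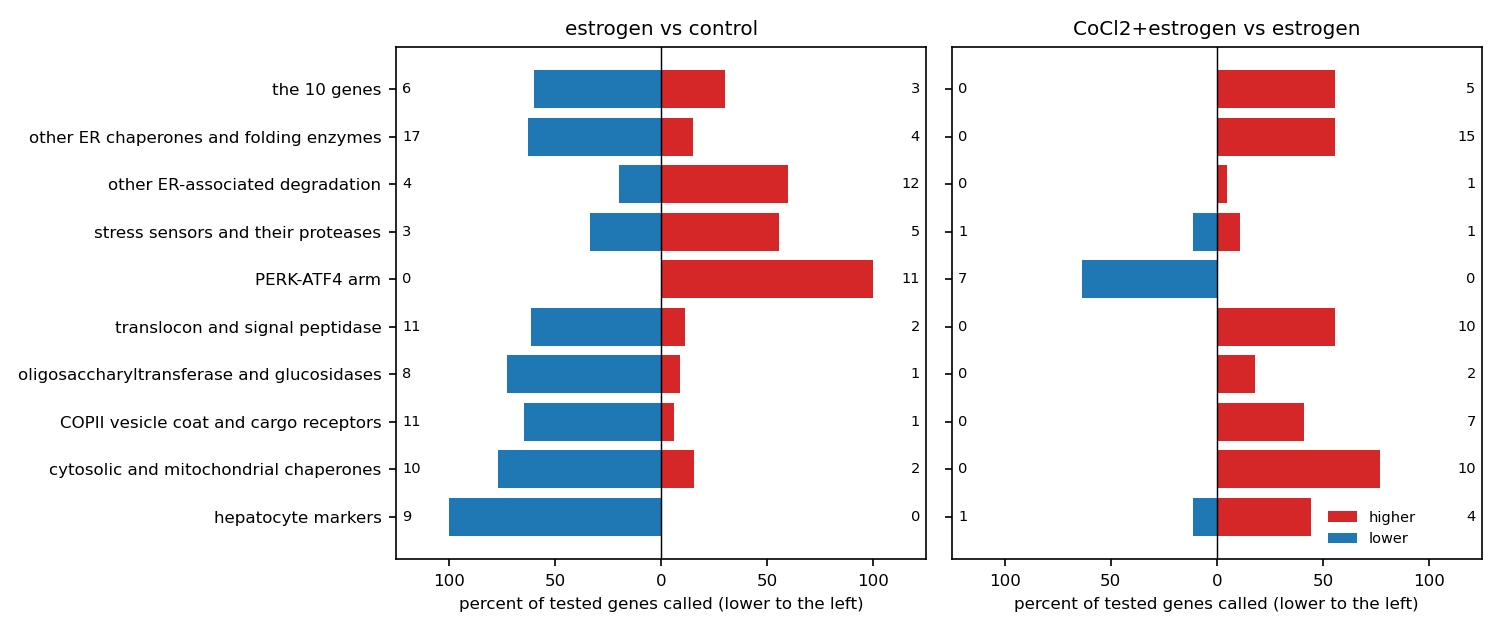
Share of the tested genes of each list that edgeR called higher (red, right) or lower (blue, left), in percent, with counts at the edges, for estrogen against control and for CoCl2+estrogen against estrogen. The 11 genes of the PERK-ATF4 list are all higher on the left and 7 are lower on the right, while 17 of 27 other ER chaperones are lower on the left and 15 are higher on the right.

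Among genes for the route into and out of the ER, more were called lower than higher with estrogen, where 34.2% of all genes were lower and 34.7% higher. Among 18 translocon and signal peptidase genes, 11 were lower and 2 higher, with SSR3 at −0.69, SPCS3 at −0.58 and SSR1 at −0.51. Of 11 genes for oligosaccharyltransferase and glucosidases, which attach and trim glycans, 8 were lower and 1 higher, with RPN1 at −0.77, STT3B at −0.69 and DDOST at −0.65. Of 17 genes of the COPII coat and cargo receptors, 11 were lower and 1 higher. KDELR3, a receptor that returns resident proteins such as BiP to the ER, was at −2.78, KDELR2 at −1.24 and SEC24D, a coat subunit that selects cargo, at −1.59. With CoCl2 added to estrogen, 10 of the 18, 2 of the 11 and 7 of the 17 were called higher and 0 lower. Among all genes, 8.14% were called higher and 8.85% lower in that comparison.

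The fall was not confined to ER chaperones. Of 13 cytosolic and mitochondrial chaperones, 10 were lower and 2 higher with estrogen, against 34.2% and 34.7% of all genes. HSPA8, the constitutive cytosolic Hsp70, fell by 2.27, HSP90AA1, the cytosolic Hsp90, by 1.37 and TRAP1, its mitochondrial relative, by 1.14 on the log2 scale. CoCl2 added to estrogen raised 10 of the 13 and lowered 0, against 8.14% of all genes higher and 8.85% lower. With CoCl2 alone BAG3, a cochaperone of Hsp70, was called (0.45, adjusted p = 0.0285, edgeR), but not without control replicate A (adjusted p = 0.197) or B (0.147) or CoCl2 replicate C (0.146), nor with library totals (0.0841), in edgeR.

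Likeness over the 12 libraries was measured by Pearson's r of log2 CPM, across libraries that share the same 4 groups. The genes most like HSPA5 were HSPA8 (r = 0.997), MRS2 and MSH6, and those most like PDIA4 were ACO1 (0.999), CCNE1 and MTHFD1. DNAJB9 was most like RABGEF1 (0.997), AMD1 and PTTG1IP, XBP1 most like CMBL (0.997), GLUD1 and HYAL1, CRELD2 most like PRMT6 (0.996), SFXN2 and CCDC69, and ERP27 most like TTC8 (0.995), SIRT3 and PIPOX. SDF2L1 was most like DAXX (0.989), SEC24D and PLCD1. Values were lower for the genes that changed little: SEL1L with BORCS5 (0.973), NIP7 and UNC13B, HYOU1 with BHLHA15 (0.950), PYGB and VPS18, and HERPUD1 with DND1 (0.920), HINFP and RELT.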

How the data were processed

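HepG2 cells were treated in 4 groups of 3 libraries, and groups were taken from the labels. The authors deposited estimated counts per gene, listed by symbol, without scaling for library size; 23.8% of values were not whole, and 7034 of 28278 genes had no read. In the study's methods, which speak of the mouse samples, Bowtie2 2.2.5 took out ribosomal and transfer RNA reads and STAR 2.7.8a aligned the rest to mm10 in Partek. The submitters' processing notes list these tools and the builds hg38 and mm10 for every sample, and no source ties a build to the HepG2 table. Counts were rounded, which moves low values by less than 1 read. A gene was tested where its count exceeded 5 in at least 1 library of the comparison. Tests used edgeR 4.0.16 (quasi-likelihood, TMM scaling) in R 4.3.3 on the 6 libraries compared, with p adjusted over all genes tested, and the interaction used all 12. Intervals are 95% and the ERP27 ratio interval is exact for the split of summed counts. The functions were tested on simulated data.

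The 10 genes and all lists were chosen with earlier results of these data known. Named were the 10 genes, from each list the 3 genes with the smallest adjusted p under estrogen and any called with CoCl2, and for each of the 10 genes the 3 with the highest Pearson r of log2 CPM (prior count 2). For the HIF1 list only its summary is given. The alternatives were DESeq2 1.42.0, other scalings and filters, 1 fit over all libraries, a block for the replicate letter, and omission of 1 library at a time. Same-letter libraries deviated together by correlations of −0.145 to 0.171, so the letters were not taken as pairs. The mouse liver libraries of the series were not used here.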

Additional observations from a re-analysis of the deposited data

Results flagged for a closer look

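The estrogen effect differed with and without CoCl2 for HSPA5, PDIA4 and SDF2L1, by an interaction term tested in edgeR over the 12 libraries. The interactions were 0.39, 0.53 and 0.99 on the log2 scale. Each is the estrogen change in the presence of CoCl2 minus the estrogen change in its absence, and each was positive because the fall was smaller with CoCl2. Interactions were not particular to these genes. In the PERK-ATF4 list, whose 11 tested genes rose with estrogen, 9 were called negative, against 3.7% of all genes. In the HIF1 target list, 6 of 10 were called negative and 0 positive. ERN1 had an interaction of −1.15 (adjusted p = 4.35e-07, edgeR). Groups of 3 libraries are too small for a search for single stray values.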

How the results depend on the processing

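Over the alternatives, the number of the 10 genes called was 7 to 9 for estrogen, 0 throughout for CoCl2, 7 to 10 for CoCl2+estrogen against control, 8 to 9 against CoCl2, 4 to 6 of 9 against estrogen, and 3 throughout for the interaction. With the replicate block these numbers were 8, 0, 7, 8, 6 and 3. The letters gave no pairing. In edgeR with the block, CRELD2 was called in CoCl2+estrogen against estrogen (0.46, adjusted p = 0.0406), and calls were lost for SEL1L with estrogen (0.15, 0.108), SEL1L (0.17, 0.0797) and HERPUD1 (0.19, 0.0620) in CoCl2+estrogen against control, and HYOU1 against CoCl2 (0.20, 0.0556). Over all genes, the 229 calls with CoCl2 became 345 in DESeq2 and 359 in 1 fit over all 12 libraries, and 136 to 249 when a library was left out. In CoCl2+estrogen against estrogen, 2706 calls became 3791 with the block, 3088 with no filter, 1988 in 1 fit over all libraries, and 1671 to 2493 when a library was left out. Signs turned only for log2 fold changes that were not called. HYOU1 with estrogen was 0.0078 with median-ratio scaling and with DESeq2, 0.0021 with filterByExpr and −0.046 to 0.016 with a library left out. HERPUD1 in CoCl2+estrogen against estrogen was −0.0020 with median-ratio scaling, −0.0042 with library totals, −0.00086 with no filter, −0.0080 with filterByExpr, −0.0022 with DESeq2, −0.0043 in 1 fit over all libraries, and −0.041 to 0.037 with a library left out. ERP27 with CoCl2 ran from −0.25 to 0.037, and its interaction from −0.25 to 1.71, with a library left out. The causes were not tested. Depth limits ERP27, CRELD2 and SDF2L1 under estrogen.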
